A study of Mus musculus with 24 samples.

Results

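The subject is the silencing of Tead1 and Tead4 together in C2C12 cells at day 3 of differentiation. The 4 libraries concerned were taken, by the siRNA, day and cell type in their labels, from 24 libraries in the series, and gene expression was compared between 2 libraries of siTead1/4 cells and 2 libraries of siControl cells. C2C12 is an established mouse myoblast line, labelled as coming from the C3H strain, and it stands here for differentiating muscle as a single cultured line. The cells received either siRNA pools against Tead1 and Tead4 (siTead1/4) or a non-targeting siRNA (siControl, labelled as directed at luciferase) and were then moved to low horse serum to differentiate. All 4 samples were collected at day 3, carry no engineered allele and are described as biological duplicates. The other libraries used for context are the same 2 groups at days 0 and 6, and primary myoblasts (PMs) of C57/B6 mice treated in the same way.

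Tead proteins are transcription factors of the Hippo pathway that bind the MCAT element of many muscle promoters. They need cofactors such as Yap1, Wwtr1 or the Vgll proteins to act. Differentiating myoblasts leave the cell cycle, fuse into myotubes and build sarcomeres, in which thick filaments of myosin slide along thin filaments of actin that are anchored at the Z-disc. Embryonic and slow myosins appear early in this programme and the adult fast myosins later.

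The 4 libraries held 37598491 to 50042946 reads on genes, and 15303 of the 28109 genes in the table were tested. Levels are given as CPM (reads of a gene relative to the TMM-scaled library size) and fold changes as log2 values ± SE. Adjusted p is the Benjamini-Hochberg value of edgeR's quasi-likelihood test over all 15303 genes. The SE was not estimated by the fit but derived, as the absolute log2 fold change divided by the square root of this test's F value. A gene was called when its adjusted p was under 0.05 and its log2 fold change beyond 1 in either direction. The siTead1/4 duplicates differed from each other more (SD of the log2 difference 0.732, r = 0.981 across genes) than the siControl duplicates did (0.437, r = 0.993). Muscle markers were present in each library, with the intermediate filament gene Des at 1440 to 3240 CPM and the myogenic regulator Myog at 500.1 to 1177 CPM. Of 13 macrophage markers 4 could be tested, with a summed level of 4.79 and 6.02 CPM in siControl and 6.01 and 7.17 CPM in siTead1/4. Of 10 endothelial markers 3 could be tested, with a summed level of 1.69 to 3.91 CPM. In bulk RNA, fewer cells of a type and less RNA per cell cannot be told apart.

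The targeted genes were examined first. Tead4 (ENSMUSG00000030353, chr6:128174306-128250841 in mm9) stood at 113 and 150.8 CPM in the siControl libraries and at 26.6 and 51.2 CPM in the siTead1/4 libraries. Both silenced libraries lay below both controls, and Tead4 was called down, with a log2 fold change of -1.76 ± 0.35 (adjusted p = 0.0425). Tead1 (ENSMUSG00000055320, chr7:119822832-120050319 in mm9) stood at 97.5 and 155 CPM in siControl and at 68.1 and 50.8 CPM in siTead1/4. Its groups did not overlap either, but its difference of -1.09 ± 0.63 did not pass the test (adjusted p = 0.501). At day 0 Tead4 was called down (-2.21 ± 0.365, adjusted p = 0.036). Tead1 then stood at 74.6 and 118.5 CPM in siControl and at 30.05 and 4.78 CPM in siTead1/4. Its difference at day 0 was -2.46 ± 0.66 and did not pass (adjusted p = 0.168), and its silenced duplicates were far apart. Leaving out any 1 of the 4 libraries of day 3 took the call of that day from Tead4, with log2 fold changes from -2.31 to -1.34.

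The genes that were not targeted did not pass the test. Tead2 had a log2 fold change of -0.75 ± 0.22 (adjusted p = 0.136) and stood at 93.3 and 83.7 CPM in siControl against 55.3 and 49.9 CPM in siTead1/4, without overlap. Tead3 stood at 48.1 and 42.6 CPM in siControl and at 72 and 48.4 CPM in siTead1/4, and 1 of its silenced libraries was close to the controls. The cofactor Wwtr1 stayed between 397 and 406 CPM in the 4 libraries. The log2 fold change of Yap1 was 0.28 ± 0.18 and those of Vgll2, Vgll3 and Vgll4 were 0.71, 0.08 and 0.07. Of the 9 members of the Tead family and its cofactors that were tested, 1 was called.

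In all, 195 genes were called (1.27% of those tested), of which 166 were called down (1.08%) and 29 up (0.19%). Myosin genes such as Myl2, Myh6, Myh7 and Myh8 are among the largest falls. The rises include the protease inhibitor gene Serpinb9g and genes of secreted proteins such as Grem1 and Tgfa. The genes called down had a median level of 14.6 CPM in siControl and 3.12 CPM in siTead1/4, and 158 of them are protein coding. Those called up had a median of 4.53 CPM in siControl and 20.8 CPM in siTead1/4. An unadjusted p under 0.05 was found for 2180 genes. The calls depend on every library. Without siControl replicate 1 there were 18 falls and 1 rise, without siControl replicate 2 there were 2 falls and 0 rises by edgeR (793 genes were lower and 521 higher at an unadjusted p under 0.05), without siTead1/4 replicate 1 there were 130 falls and 299 rises, and without siTead1/4 replicate 2 there were 12 falls and 4 rises. Beside a group of 2, the lone library left was taken to vary like the others. Myh6 and Itgb1bp2 were called in each of the 4 fits.

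**Figure D1:**
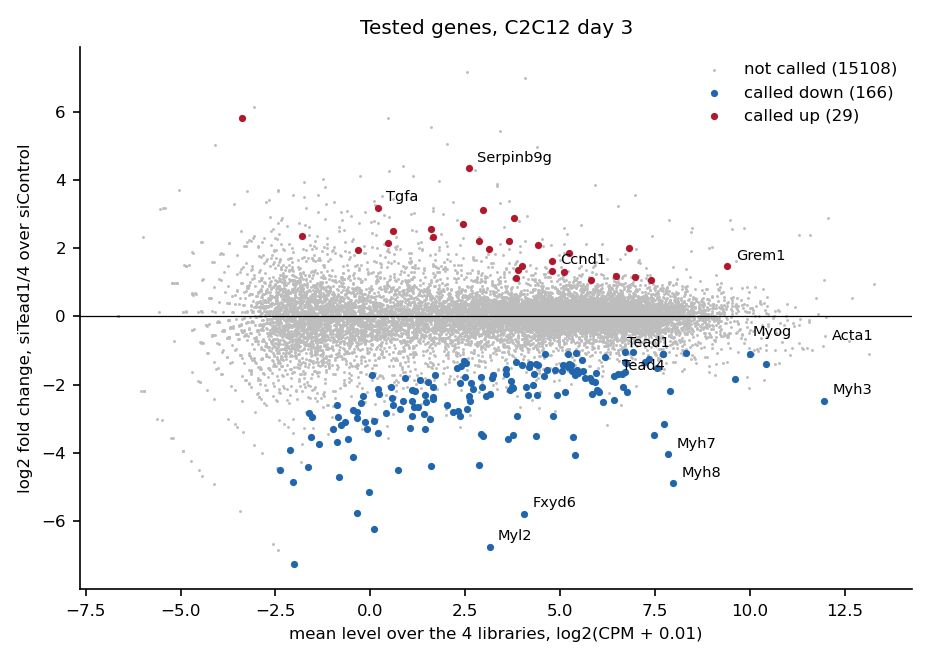
Mean level over the 4 libraries of C2C12 day 3 (log2 of CPM + 0.01, horizontal) against the log2 fold change of siTead1/4 over siControl (vertical) for each tested gene, with the 166 genes called down in blue, the 29 called up in red and the 15108 others in grey. The falls extend up to highly expressed genes such as Myh3, and Tead1 and Acta1 lie among the genes that were not called.

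The thick filament and M-band list had the lowest median of the lists, and its called members were myosin genes. Of 27 members tested, 7 were called down and 0 up (edgeR; 19 had an unadjusted p under 0.05, and DESeq2 called 13 down and 0 up). In 23 of the 27 both siTead1/4 libraries lay below both siControl libraries, against 25.5% of all tested genes. The median log2 fold change of the list was -1.56, beside 0.01 over all tested genes. Its summed level was 20180 and 24360 CPM in siControl and 6259 and 9394 CPM in siTead1/4.

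Myl2, the regulatory light chain of slow and cardiac muscle, showed the largest fall of the list. It stood at 18.4 and 16.7 CPM in siControl and at 0.081 and 0.23 CPM in siTead1/4, which is 763 and 799 reads against 3 and 10. This is a log2 fold change of -6.75 ± 0.69 (adjusted p = 0.0093), and Myl2 stood at 0 CPM in both siControl libraries of day 0. Myh7, the slow myosin heavy chain, stood at 339 and 527 CPM in siControl and at 26.6 and 26.1 CPM in siTead1/4 (-4.04 ± 0.51, adjusted p = 0.0135). Its neighbour on chromosome 14, the cardiac myosin gene Myh6, went from 69.6 and 90.4 CPM to 4.77 and 4.88 CPM (-4.05 ± 0.33, adjusted p = 0.00189). The silenced duplicates of both genes nearly coincide, far below the controls.

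Myh8, the perinatal myosin, varied between the controls, at 293 and 686 CPM, and stood at 10.2 and 22.8 CPM in siTead1/4 (-4.89 ± 1.01, adjusted p = 0.0495). Myh7b, a slow type myosin that hosts a microRNA, went from 31.1 and 44.2 CPM to 3.37 and 3.25 CPM (-3.51 ± 0.52, adjusted p = 0.017). Embryonic myosin Myh3 was the most abundant of these genes, at 5302 and 8306 CPM in siControl and 1343 and 1118 CPM in siTead1/4 (-2.47 ± 0.45, adjusted p = 0.0336). Myh3 thus remained far above its day 0 level in siControl cells, which was 15.6 and 7.55 CPM. The seventh called member, named after its values were seen, was the myosin light chain gene Myl6b, at 314 and 337 CPM in siControl and 20.2 and 38.2 CPM in siTead1/4 (-3.48 ± 0.50, adjusted p = 0.0158).

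The adult myosins did not pass the test. Myh1 stood at 628 and 966 CPM in siControl and at 246 and 357 CPM in siTead1/4 (-1.40 ± 0.53, adjusted p = 0.247). Myh2 was similar in sign at -1.56 ± 0.53 (adjusted p = 0.197). Myh4, the fastest type, stood at 56.6 and 226 CPM in siControl and at 177 and 278 CPM in siTead1/4, so that its groups overlapped (0.69 ± 0.93). Per kilobase of gene model, the mean siControl level was 1106 CPM for Myh3, 125 for Myh1, 68 for Myh7, 62.2 for Myh8 and 23.4 for Myh4. In siTead1/4 it was 200.1 for Myh3, 47.4 for Myh1, 37.7 for Myh4, 4.14 for Myh7 and 2.1 for Myh8. Myosin heavy chain genes are close copies of each other, so reads may have been divided between them unevenly and values of single members are less certain than those of other genes.

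Thin filament genes gave 2 falls among 22 tested members and 0 rises (edgeR; 13 had an unadjusted p under 0.05, and DESeq2 called 8 down and 0 up). Their median was -1.12, and 18 of them did not overlap, on the lower side. Tmod1, which caps the pointed end of actin, went from 91.3 and 122 CPM to 22 and 23.7 CPM (-2.23 ± 0.33, adjusted p = 0.0167). Cardiac troponin T, Tnnt2, went from 1975 and 2016 CPM to 645 and 885 CPM (-1.38 ± 0.26, adjusted p = 0.0339). Neither gene overlapped between the groups. Skeletal actin Acta1 had 5260 and 4868 CPM in siControl and 2445 and 3106 CPM in siTead1/4, and was not called (adjusted p = 0.546). The slow troponin gene Tnni1 had 2483 and 2282 CPM against 586 and 1210 CPM, and its -1.41 ± 0.45 did not pass either (adjusted p = 0.168).

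All 31 tested genes of the Z-disc and costamere had a negative log2 fold change, 30 of them without overlap, with a median of -1.19. Of these, 5 were called down and 0 up (edgeR; 26 had an unadjusted p under 0.05, and DESeq2 called 15 down and 0 up). The stretch-responsive ankyrin repeat gene Ankrd2 went from 86.6 and 62.5 CPM to 4.12 and 8.61 CPM (-3.55 ± 0.41, adjusted p = 0.0093). The actin crosslinker Actn2 went from 275 and 488 CPM to 40.5 and 45 CPM (-3.16 ± 0.54, adjusted p = 0.0294). Csrp3, a muscle LIM protein gene, went from 113 and 96.2 CPM to 19 and 27.4 CPM (-2.17 ± 0.44, adjusted p = 0.0454). The 2 remaining calls were smaller. They were Myoz2, which binds calcineurin at the Z-disc, at -1.38 ± 0.23, and the small heat shock protein gene Hspb8 at -1.24 ± 0.22. Cav3, the muscle caveolin, stood at 107 and 104 CPM in siControl and 22.1 and 46.9 CPM in siTead1/4 and missed the threshold (-1.61 ± 0.36, adjusted p = 0.0663). The LIM gene Fhl1 had a log2 fold change of -1.38 ± 0.40 (adjusted p = 0.139).

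Excitation-contraction coupling genes, which link the action potential to calcium release, gave 3 falls and 0 rises among 34 tested (edgeR; 21 had an unadjusted p under 0.05, and DESeq2 called 10 down and 0 up), with a median of -0.88. Casq1, the calcium buffer of the sarcoplasmic reticulum, went from 127 and 165 CPM to 30.6 and 23.3 CPM (-2.44 ± 0.44, adjusted p = 0.0327). The calcium channel regulator Rrad fell by 1.75 ± 0.33 and the kinase gene Camk2a fell by 1.64 ± 0.33 on the log2 scale. Neither overlapped between groups.

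Muscle energy metabolism gave 3 falls and 0 rises among 33 tested (edgeR; 16 had an unadjusted p under 0.05, and DESeq2 called 7 down and 0 up), with a median of -0.61. Pgam2, the muscle phosphoglycerate mutase, went from 86.9 and 105 CPM to 19 and 31.4 CPM (-1.93 ± 0.30, adjusted p = 0.0189). The mitochondrial creatine kinase gene Ckmt2 (-2.54 ± 0.51) and the AMP deaminase gene Ampd1 (-2.16 ± 0.41) were called at low levels, both under 5 CPM in each of the 4 libraries of day 3. In the respiratory chain 74 of 75 genes had a negative log2 fold change, but these were small, from -0.66 to 0.01 with a median of -0.31, and 0 were called (edgeR with 5 at an unadjusted p under 0.05, and DESeq2 with 0).

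Leaving out 1 library of day 3 at a time lowered the calls in these lists. Called falls then ranged from 1 to 5 in the thick filament list, from 0 to 1 in the thin filament list, from 0 to 2 in the Z-disc list, from 0 to 2 in the coupling list and from 0 to 1 in the energy list. The fit without siControl replicate 2 gave 1 call in the thick filament list and 0 in each of the 4 others, and that without siTead1/4 replicate 1 gave the highest count in 4 of the 5 lists and shared the highest in the other, the Z-disc list.

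**Figure D2:**
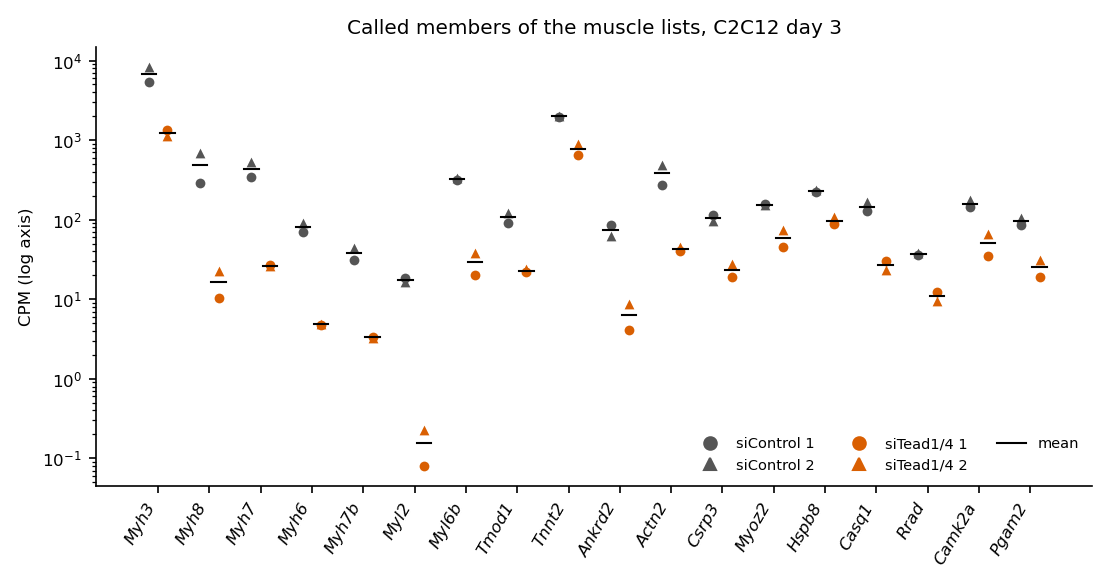
Level in CPM (log axis) of 18 called members of the muscle lists in each of the 4 libraries of C2C12 day 3, with siControl in grey, siTead1/4 in orange, circles for replicate 1, triangles for replicate 2 and a bar for the mean of 2. In each gene both orange points lie below both grey points, from Myl2 at 0.081 and 0.23 CPM in siTead1/4 up to Myh3 at 1118 and 1343 CPM.

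Because Tead proteins bind MCAT, the RefSeq promoter windows (GRCm38.p6, 250 bases before to 50 after each start site) were searched for CATTCCA and CATTCCT on both strands, motifs that cannot match at the same position. Among 11243 tested genes with a window, 970 (8.63%) held a match in at least 1 window, as did 7.28% of their 14362 windows. A window was found for only 116 of the 166 genes called down, so the share among them is not compared with this background, and 13 of the 116 held a match, as did 1 of 25 genes called up with a window. The stretches below are the bases before the start site for 4 of those 13 genes, shown because they fell and hold the motif. Capitals mark the match as it reads on the gene's own strand, so that a motif on the opposite strand appears as AGGAATG or TGGAATG. It begins 207 bases before the start in Myh6 (chr14:54966608-54966857, minus strand), 202 in Myh7 (chr14:54994627-54994876, minus strand), 27 in Tnnt2 (chr1:135836084-135836333, plus strand) and 200 in Frem2 (chr3:53657356-53657605, minus strand).
Myh6: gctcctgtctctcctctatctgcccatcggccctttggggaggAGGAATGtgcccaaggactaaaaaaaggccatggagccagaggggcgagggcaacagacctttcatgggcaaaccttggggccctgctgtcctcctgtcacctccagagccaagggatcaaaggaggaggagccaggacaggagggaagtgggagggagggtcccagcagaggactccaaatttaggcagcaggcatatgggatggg
Myh7: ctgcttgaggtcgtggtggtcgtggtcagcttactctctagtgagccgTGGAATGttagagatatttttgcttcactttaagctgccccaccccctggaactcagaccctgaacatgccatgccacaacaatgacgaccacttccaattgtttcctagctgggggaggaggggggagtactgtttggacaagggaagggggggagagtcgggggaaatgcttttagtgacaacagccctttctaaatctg
Tnnt2: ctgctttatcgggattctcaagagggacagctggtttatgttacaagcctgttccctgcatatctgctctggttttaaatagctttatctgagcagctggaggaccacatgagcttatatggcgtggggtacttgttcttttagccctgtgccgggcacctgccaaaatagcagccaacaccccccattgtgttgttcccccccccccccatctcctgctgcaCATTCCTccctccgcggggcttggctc
Frem2: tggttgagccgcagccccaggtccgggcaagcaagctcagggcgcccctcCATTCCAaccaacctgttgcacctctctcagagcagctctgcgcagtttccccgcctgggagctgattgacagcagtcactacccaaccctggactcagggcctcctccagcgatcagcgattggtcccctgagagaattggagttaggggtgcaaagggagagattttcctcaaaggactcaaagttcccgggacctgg

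Letters that match are a description of these windows and not evidence of binding. The sarcomeric genes Myh6, Myh7 and Tnnt2 are described above. Frem2, an extracellular matrix gene of basement membranes, stood at 7.61 and 21 CPM in siControl and at 1.67 and 0.875 CPM in siTead1/4 (-3.49 ± 0.62, adjusted p = 0.0325). Its controls differ widely from each other but do not overlap with the silenced libraries.

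Several of the largest falls lie outside the muscle lists. Fxyd6, a regulator of the sodium pump, went from 29.7 and 35.7 CPM to 0.216 and 0.944 CPM (-5.78 ± 0.66, adjusted p = 0.0093). The chemokine gene Ccl11 went from 5.44 and 6.04 CPM to 0.296 and 0.253 CPM (-4.37 ± 0.56, adjusted p = 0.0135), and the matricellular gene Nov went from 17.4 and 10.5 CPM to 0.889 and 0.484 CPM (-4.35 ± 0.81, adjusted p = 0.0346). None of the 3 overlapped between the groups. Atp6v1c2, a proton pump subunit, had 22.6 and 22.8 CPM in siControl and 1.05 and 2.67 CPM in siTead1/4 (-3.60 ± 0.39), and the tetraspanin gene Tspan13 had 20.7 and 29.2 CPM against 2.02 and 2.44 CPM (-3.48 ± 0.54).

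Some further genes outside the lists were called down and are named here after their values were seen. Itgb1bp2 (melusin), which binds integrin beta 1 in striated muscle, went from 180 and 177 CPM to 38.5 and 37.5 CPM (-2.23 ± 0.19, adjusted p = 0.00189). The duplicates of each group nearly coincide. The call of Itgb1bp2 held under all 12 alternative fits, with log2 fold changes from -2.26 to -2.20. Others named in this way were Srpk3, a muscle kinase that acts on splicing factors (-1.61 ± 0.30), the ADP-ribosyltransferase gene Art1 (-1.71 ± 0.26), the ubiquitin ligase adaptor gene Fbxo40 (-1.90 ± 0.36) and the cyclic AMP binding Popdc2 (-2.34 ± 0.34). So were the sarcoplasmic reticulum gene Dhrs7c (-1.89 ± 0.33), the histone deacetylase gene Hdac9 (-2.31 ± 0.31) and the integrin ligand gene Npnt (-1.82 ± 0.27). None of these 7 overlapped between the groups. Npnt was the most abundant, at 1182 and 1266 CPM in siControl and 303 and 388 CPM in siTead1/4. It already stood at 592 and 574 CPM in siControl at day 0, where its effect was -1.32 ± 0.27 and not called.

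Genes at or under 3 reads in both libraries of 1 group made up 12 of the 195 calls, 11 down and 1 up. They are counted above, and no fold change is given for them.

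The regulators of myogenesis were not called, which does not set them apart, since only 1.27% of all tested genes were called. The same holds for the other lists of this paragraph. An unadjusted p under 0.05 was found for 2180 of the 15303 tested genes. Of 25 myogenic transcription factors tested, 0 were called (edgeR with 4 at an unadjusted p under 0.05, and DESeq2 with 2 down and 0 up), with a median of -0.12. Myod1 stood between 147 and 179 CPM in the 4 libraries. Myog had 1177 and 1158 CPM in siControl and 500.1 and 871 CPM in siTead1/4, a difference of -0.77 ± 0.58 (adjusted p = 0.634). Mef2c, a partner of the myogenic factors, went from 358 and 564 CPM to 129 and 186 CPM without overlap, and missed the threshold (-1.55 ± 0.37, adjusted p = 0.0779). Mef2d (-0.74 ± 0.19, adjusted p = 0.1), Mef2a (-0.37 ± 0.20), Sox11 (-0.71 ± 0.27) and Myf6 (-0.67 ± 0.65) were not called. Myf5, expressed in undifferentiated myoblasts, stood at 14.7 and 15.9 CPM in siControl and at 16.1 and 51.3 CPM in siTead1/4, where only 1 library was clearly higher. Fusion and adhesion genes gave 0 calls among 25 (edgeR with 8 at an unadjusted p under 0.05, and DESeq2 with 3 down and 2 up), with a median of -0.28. The dystrophin-glycoprotein complex (21 tested, median -0.21, 3 at an unadjusted p under 0.05) and the neuromuscular junction (22 tested, median -0.29, 5 at an unadjusted p under 0.05) gave 0 calls by edgeR and 1 and 2 falls by DESeq2.

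Among cell cycle genes only cyclin D1 was called in the lists examined, beside 1.27% of all tested genes. Of 56 mitosis genes 53 had a negative log2 fold change, with a median of -0.52, but 0 were called and 0 had an unadjusted p under 0.05 (edgeR, with 0 also by DESeq2). Of 49 DNA replication genes 37 were negative, with a median of -0.32 and 0 calls (edgeR with 1 at an unadjusted p under 0.05, and DESeq2 with 0). Among 32 genes of G1 control, 1 was called up and 0 down (edgeR with 7 at an unadjusted p under 0.05, and DESeq2 with 1 up and 1 down). This was cyclin D1, Ccnd1, at 17.5 and 14 CPM in siControl and 49.4 and 30.1 CPM in siTead1/4 (1.34 ± 0.26, adjusted p = 0.0405).

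**Figure D3:**
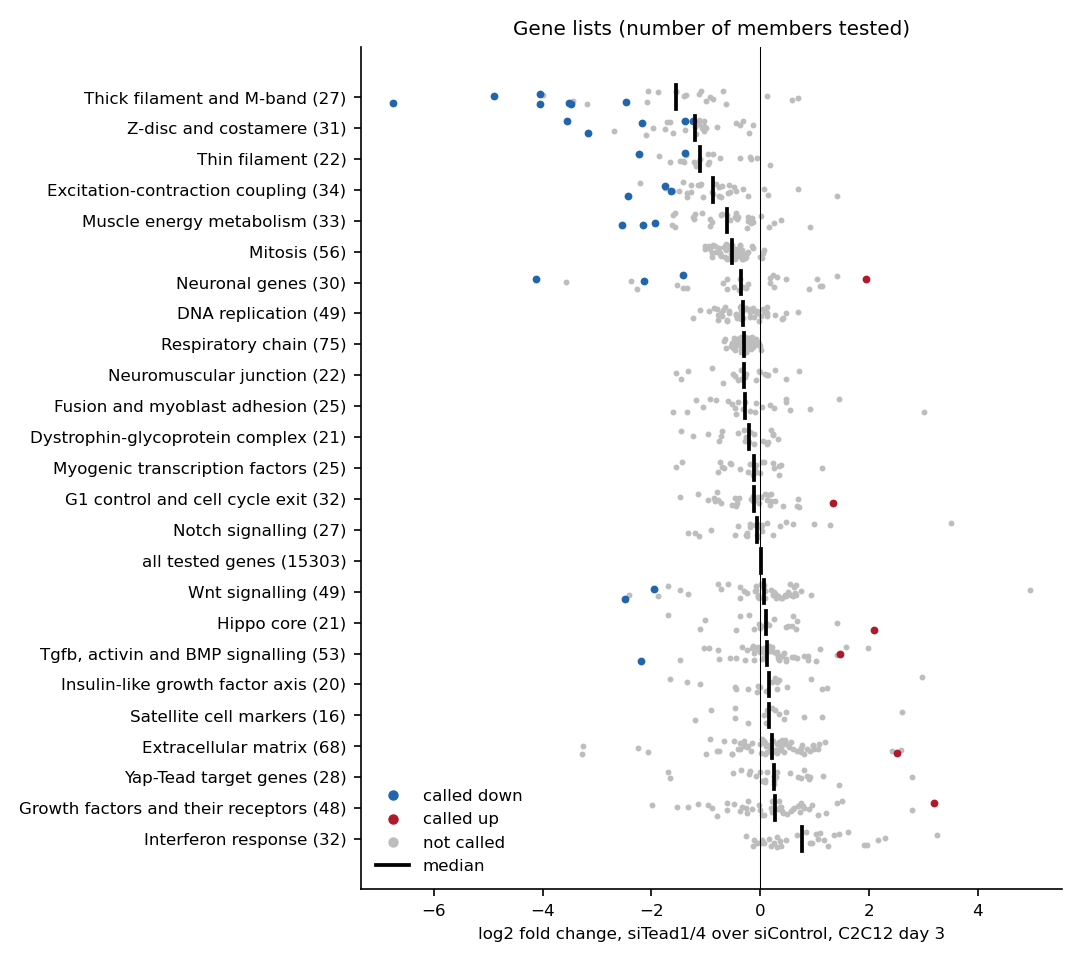
Log2 fold change of siTead1/4 over siControl at C2C12 day 3 (horizontal) for each member of the lists with at least 15 genes tested, blue where called down, red where called up and grey otherwise, with the list's median as a black bar and all tested genes for comparison (median only). The bars of the 3 sarcomere lists lie at -1.56, -1.19 and -1.12, and that of the interferon list lies highest, at 0.76, with no call.

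Signalling genes were called singly. Over all tested genes 1.08% were called down and 0.19% up, and 2180 of 15303 had an unadjusted p under 0.05. These shares stand beside the counts of the signalling, growth factor, Yap-Tead, Hippo, Notch, insulin-like growth factor and matrix lists. Few calls in such a list do not set it apart. The activin antagonist Fst, which promotes muscle growth, went from 326 and 456 CPM to 97.5 and 74.1 CPM (-2.19 ± 0.40, adjusted p = 0.0336), and the BMP antagonist Grem1 went the other way, from 386 and 341 CPM to 1079 and 925 CPM (1.46 ± 0.19, adjusted p = 0.0135). These were the 2 calls among 53 genes of Tgfb, activin and BMP signalling, whose median was 0.12. Against the siControl mean, that median was 0.23 in siTead1/4 replicate 1 and -0.08 in replicate 2. Among 49 Wnt genes the antagonist Dkk2 (-2.48 ± 0.45) and the receptor Fzd9 (-1.96 ± 0.35, from 7.70 and 8.77 CPM to 1.67 and 2.56 CPM) were called down and 0 up (edgeR with 8 at an unadjusted p under 0.05, and DESeq2 with 4 down and 1 up). Sfrp2, a secreted Wnt antagonist, had 0.674 and 1.94 CPM in siControl and 77.7 and 4.44 CPM in siTead1/4, and was not called (adjusted p = 0.106). Its mean in the silenced cells rests on replicate 1.

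Growth factor genes gave 1 call among 48 (edgeR with 14 at an unadjusted p under 0.05, and DESeq2 with 5 up and 2 down), with a median of 0.27. Against the siControl mean, that median was 0.29 in siTead1/4 replicate 1 and 0.01 in replicate 2. Tgfa, a ligand of the EGF receptor, stood at 0.193 and 0.25 CPM in siControl and at 0.997 and 3.09 CPM in siTead1/4 (3.19 ± 0.58, adjusted p = 0.0336). Edn1 (2.78 ± 0.69, adjusted p = 0.0884), Vegfc (1.5 ± 0.34, adjusted p = 0.0678), Pdgfb (0.90 ± 0.36, adjusted p = 0.284) and Tgfb2 (0.81 ± 0.27, adjusted p = 0.185) did not overlap between the groups but were not called, and neither was Mapk6 (0.22 ± 0.22), whose groups overlapped. Of 28 known Yap-Tead target genes 0 were called (edgeR with 10 at an unadjusted p under 0.05, and DESeq2 with 2 up and 2 down), with a median of 0.26. Against the siControl mean, this list's median was 0.57 in siTead1/4 replicate 1 and -0.04 in replicate 2. Ctgf, a classic member, had 339 and 65.9 CPM in siControl and 257 and 28.2 CPM in siTead1/4, so that the duplicates of a group differed more than the groups. Amotl2 (0.26 ± 0.26) and Lats2 (0.25 ± 0.21) were close to no difference.

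Among 21 genes of the Hippo core, Rassf5 was called up, from 8.71 and 7.69 CPM to 21.7 and 47.9 CPM (2.08 ± 0.38, adjusted p = 0.0332), and 0 were called down (edgeR with 7 at an unadjusted p under 0.05, and DESeq2 with 2 down and 1 up). The Notch list (27 genes, 8 at an unadjusted p under 0.05) and the insulin-like growth factor list (20 genes, 6 at an unadjusted p under 0.05) gave 0 calls by edgeR and, by DESeq2, 1 fall, and 1 fall and 1 rise, with medians of -0.05 and 0.16. Among 68 genes of the extracellular matrix, 1 was called, the collagen gene Col19a1 (2.51 ± 0.39, from 0.481 and 0.417 CPM to 2.45 and 2.69 CPM). The summed level of this list was 31030 and 33050 CPM in siControl and 63220 and 29250 CPM in siTead1/4, so that replicate 1 of the silenced cells stood apart. Fibroblast markers (13 tested) likewise summed to 3874 CPM in that library and 1525 CPM in replicate 2, against 3047 and 3606 CPM in siControl. Their part in the results was not tested.

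Interferon response genes had the highest median of the lists, 0.76, and 28 of 32 had a positive log2 fold change. The list had 0 calls by edgeR, with 11 members at an unadjusted p under 0.05, and DESeq2 called 3 up. In 16 of 32 both silenced libraries lay above both controls, against 21% of all tested genes. The summed level was 721 and 609 CPM in siControl and 712 and 729 CPM in siTead1/4.

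Among the lists of other cell types, the neuronal list gave the most calls. Over all tested genes 1.08% were called down and 0.19% up. Of 30 neuronal genes tested, Nefl (-4.12 ± 0.53), Nefm (-2.13 ± 0.37) and Mtap2 (-1.42 ± 0.25), which encode neurofilament and microtubule proteins, were called down and the ephrin receptor gene Epha3 (1.95 ± 0.38) up. Apart from Mtap2, at 30.7 and 31.2 CPM in siControl and 11.5 and 11.6 CPM in siTead1/4, these were under 2 CPM in each of the 4 libraries of day 3. In siControl at day 0, however, Nefl stood at 119.9 and 111 CPM and Nefm at 87.6 and 84.7 CPM. Both were already called down at day 0 (-2.16 ± 0.32 and -2.16 ± 0.31). The fatty acid transporter gene Cd36, listed with adipocyte markers and also expressed in muscle, went from 79.4 and 110 CPM to 23.3 and 35.9 CPM (-1.67 ± 0.27, adjusted p = 0.0233). Itgam, an integrin listed with macrophage markers, was called down from 0.987 and 1.52 CPM to 0.135 and 0.23 CPM. Fibroblast, smooth muscle, osteoblast, endothelial, Schwann cell and satellite cell markers gave 0 calls by edgeR (7, 3, 2, 0, 3 and 4 members at an unadjusted p under 0.05), and DESeq2 called 3, 1, 0, 0, 1 and 0 of them, all down.

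Among called genes with at least 5 CPM in a group the largest rise was that of Serpinb9g, a serine protease inhibitor, from 0.578 and 0.563 CPM in siControl to 4.55 and 18.5 CPM in siTead1/4 (4.33 ± 0.76, adjusted p = 0.0318). Serpinb6c, of the same inhibitor family, went from 0.65 and 1.08 CPM to 2.94 and 7.44 CPM (2.57 ± 0.49). Both belong to clusters of close copies, so their reads are uncertain. The unnamed transcript 6330403A02Rik went from 1.54 and 1.73 CPM to 10.1 and 18.1 CPM (3.11 ± 0.38, adjusted p = 0.0135), and Il12a, a subunit of interleukin 12, went from 3.9 and 2.71 CPM to 17.8 and 30.6 CPM (2.87 ± 0.53, adjusted p = 0.0339).

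Replicate 2 of siTead1/4 was the higher silenced library in these 4 rises. The heparan sulphate sulphotransferase gene Hs3st3b1 stood at 1.35 and 1.54 CPM in siControl and at 4.23 and 14.8 CPM in siTead1/4 (2.71 ± 0.52). Ero1l, an oxidase of the endoplasmic reticulum, had 43.8 and 46.2 CPM against 92.8 and 271 CPM (2.02 ± 0.42, adjusted p = 0.0495). The scavenger receptor gene Scara5 (2.21 ± 0.41) and the ion exchanger gene Slc24a3 (2.20 ± 0.44) followed the same order. Rises with closer duplicates were those of Lingo1, a membrane protein of neurons, from 0.939 and 1.15 CPM to 5.42 and 5 CPM (2.31 ± 0.32, adjusted p = 0.0148), and of Itga4, an integrin subunit, from 12.4 and 20.5 CPM to 65.5 and 53.7 CPM (1.86 ± 0.33, adjusted p = 0.0327). The secreted peptide gene Apln rose from 2.46 and 4.63 CPM to 16.5 and 11.6 CPM (1.98 ± 0.41, adjusted p = 0.0483).

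**Figure D4:**
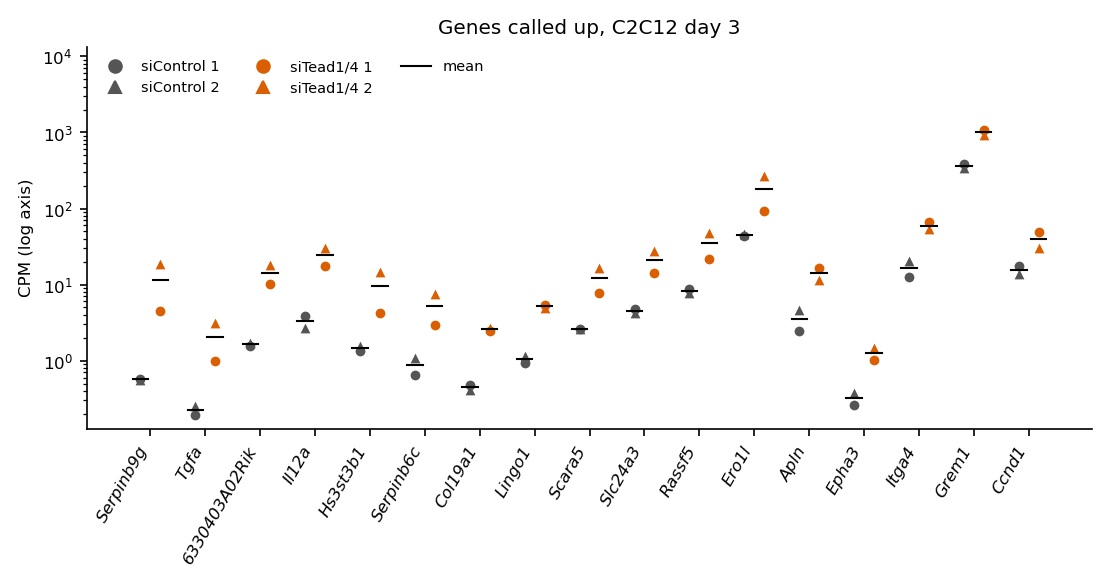
Level in CPM (log axis) of 17 genes called up at C2C12 day 3 in each of the 4 libraries, with siControl in grey, siTead1/4 in orange, circles for replicate 1, triangles for replicate 2 and a bar for the mean of 2. Both orange points lie above both grey points in each gene, and in Serpinb9g and Hs3st3b1 replicate 2 of siTead1/4 lies well above replicate 1.

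The same contrast was read at the other days, whose libraries are separate. At day 0, when 46 genes were called down (0.301% of those tested) and 21 up (0.137%), 101 of the 166 genes had a negative log2 fold change (60.8%, against 47.5% of all genes) and 6 were called down. At day 6, when 7 genes were called (0.0457%), 5 down (0.0327%) and 2 up (0.0131%), 164 of the 166 were negative (98.8%, against 48.5% of all genes), with a median of -1.30. All 5 falls and both rises called at day 6 were among the calls of day 3. The falls were Myl2, Fxyd6, Myh6, Atp6v1c2 and Padi2, the last named for this count after its values were seen, and the rises were Itga4 and Lingo1. Of the 29 genes called up, 26 were positive at day 6. The difference of the effect between days was tested as an interaction, with 0 calls by edgeR for day 3 minus day 0 (0%) and for day 3 minus day 6 (0%). At an unadjusted p under 0.05 the effect on 1745 and 314 of all genes differed, and among the 166 genes 102 and 53, values that share the day 3 libraries with the calls.

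The median of the thick filament list was -0.54 at day 0, -1.56 at day 3 and -0.87 at day 6, with 0, 7 and 2 falls (edgeR with 7, 19 and 12 at an unadjusted p under 0.05). The Z-disc list followed the same order, with -0.26, -1.19 and -0.69, and the thin filament list with 0.16, -1.12 and -0.61. Some members were nearly absent at day 0, so that the day 0 medians rest partly on few reads. Myl2, Myh6, Myh7b and Ankrd2 were at 0 to 0.209 CPM in the libraries of day 0. Mitosis genes were negative at day 3 in 53 of 56 cases and positive at day 6 in 56 of 56, with medians of -0.52 and 0.53 and 0 genes at an unadjusted p under 0.05 at either day.

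In PMs at day 3, 532 genes were called (3.3% of 16144 tested), 193 down (1.2%) and 339 up (2.1%). Of the 157 genes called down in C2C12 cells that could be tested in PMs, 112 were negative there (71.3%, against 49.4% of genes tested in both) and 25 were called down, which is 15.9% of the 157 and 14.8% of the 169 PM falls tested in both. They included Tead4, Myl2, Myh7, Myh8, Ankrd2 and Ckmt2. In PMs Ankrd2 fell by 3.80 ± 0.49 on the log2 scale, as against 3.55 ± 0.41 in C2C12 cells, and Myh7 fell by 3.03 ± 0.45. Of 27 genes called up that could be tested, 4 were also called up in PMs, namely 6330403A02Rik, Ccnd1, Il12a and Lingo1, which is 14.8% of the 27 and 1.72% of the 233 PM rises tested in both. Tead1 was called down in PMs, with 279 and 267 CPM in siControl and 95.6 and 74.3 CPM in siTead1/4 (-1.68 ± 0.31, adjusted p = 0.0107), and Tead4 fell by 2.58 ± 0.17 on the log2 scale.

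A test of the difference between the cell types over all 24 libraries called 172 genes with a lower effect in C2C12 cells (1.02% of 16926 tested) and 40 with a higher one (0.236%). Of the 166 genes called down in C2C12 cells, 59 differed at an adjusted p under 0.05, as did 5 of the 29 called up, in a test that used the same C2C12 libraries as the calls. Actn2 stood at 2545 and 2292 CPM in siControl PMs and at 1987 and 1739 CPM in siTead1/4 PMs, and its effect differed by -2.76 ± 0.55 (adjusted p = 0.0196). Casq1 had 1405 and 1224 CPM against 1234 and 1301 CPM in PMs, and Fxyd6 had 323 and 326 CPM against 351 and 415 CPM. These 3 genes fell in C2C12 cells, while their PM levels were several times higher than in C2C12 cells and were not called. In contrast Myh6 was at 0.119 to 0.291 CPM in the PM libraries, so its difference of -3.67 rests on few reads in PMs. The 2 genes called in opposite directions were named for this count after their values were seen. They were Cyp26b1, which degrades retinoic acid (-2.76 ± 0.48 in C2C12 cells and 1.78 ± 0.39 in PMs), and the transcript 9530026P05Rik (-3.29 ± 0.53 and 2.11 ± 0.36). In PMs 1.27% of the 157 C2C12 falls tested there were called up, against 1.6% of genes tested in both cell types. Their PM levels were low, at 0.801 to 3.38 CPM for Cyp26b1 and 0.243 to 1.61 CPM for 9530026P05Rik. Strain, culture and origin of the cells cannot be told apart in this comparison.

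For the muscle lists the PM medians at day 3 were -0.48 for the thick filament, -0.07 for the thin filament, -0.36 for the Z-disc and -0.17 for excitation-contraction coupling, beside -1.56, -1.12, -1.19 and -0.88 in C2C12 cells. Interferon response genes were negative in 31 of 32 cases in PMs, with a median of -1.03, while the C2C12 median was 0.76. The difference between these medians was not tested.

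The C2C12 falls were also read over the course of differentiation in PMs, from libraries that played no part in the calls. Calling a fall favours genes that are high in siControl at day 3 (median 14.6 CPM, against 0.761 CPM at day 0). The shares over all genes are therefore not a matched background, and no conclusion is drawn from the difference. Of the 157 genes, 93 were called up in siControl PMs between day 0 and day 3 (59.2%, against 17.5% of all genes tested in PMs and 16.2% of those tested in both cell types), and 16 were called down (10.2%, against 14.9% and 15%). Of the 27 genes called up, 5 rose and 6 fell over the same days. In the C2C12 cells themselves, 118 of the 166 genes had a higher mean level in siTead1/4 at day 3 than in siControl at day 0, whose median over the 166 was 0.761 CPM. The same held for 7707 of the 15108 genes that were not called.

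**Figure D5:**
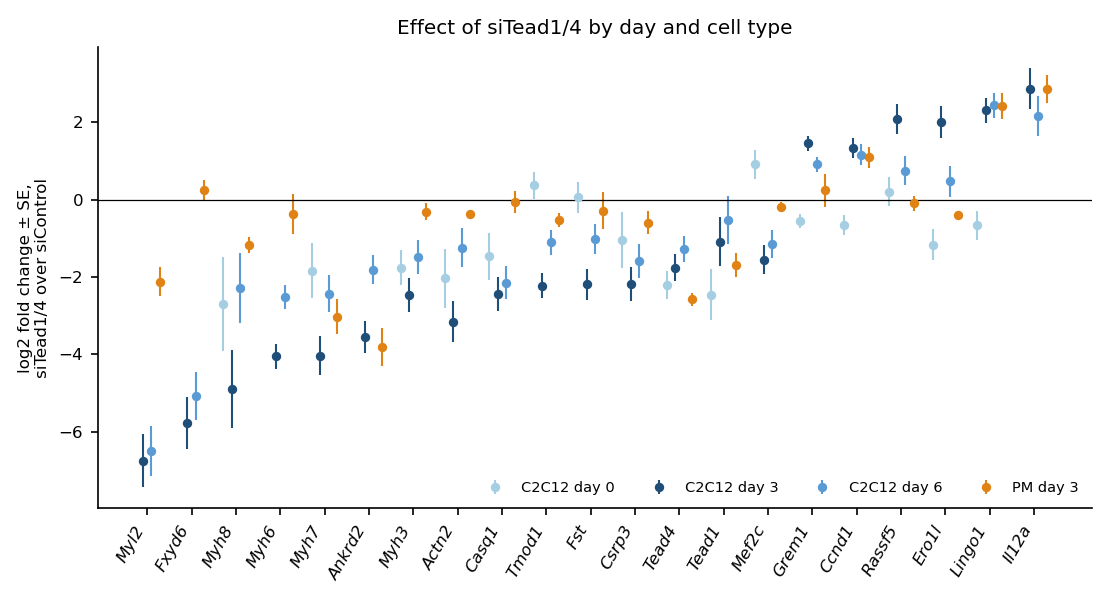
Log2 fold change ± SE of siTead1/4 over siControl (vertical) for 21 named genes in C2C12 cells at days 0, 3 and 6 (blue shades) and in PMs at day 3 (orange), with day 0 left out for 5 genes whose mean was under 0.5 CPM in both groups. Ankrd2 and Myh7 are low in both cell types, whereas Fxyd6, Actn2 and Casq1 are low in C2C12 cells at days 3 and 6 and near 0 in PMs.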

How the data were processed

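The authors deposited raw counts per gene for all libraries in 1 table (unit: counts), with size-factor normalized values beside them that were not used. Per the submitters' processing notes the build was mm9, and CASAVA 1.8.2, TopHat2 2.0.10, Bowtie2 2.1.0, HTSeq 0.6.1 and DESeq2 1.8.1 were among the tools. The Ensembl release is not given in the sources used here. The library kit is unstranded, so reads of overlapping genes may be shared. A further 36 columns belong to libraries not listed as samples and were left out.

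For the present comparison edgeR 4.0.16 (R 4.3.3) was run on the counts, with filterByExpr, TMM and the quasi-likelihood test. The 12 C2C12 libraries were fitted with 6 group means, PMs likewise, and the difference between cell types on 24 libraries. DESeq2 1.42.0 was an alternative. The biological coefficient of variation was 0.242. The fits were also run on simulated data with the same spread per gene in every group. The duplicates here differ in spread between groups, so these runs do not bear on the stability of the calls. Nothing in the labels says that duplicates came from separate thaws or passages, so p-values rest on the spread between these samples. For the day 3 calls that spread was estimated over all 12 C2C12 libraries, including those of days 0 and 6.

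Named genes are the Tead family and its cofactors, the 12 largest called rises and falls with at least 5 CPM in a group and no overlap, up to 5 called members per list and direction, and genes the study discusses. Members, lists and rules were chosen with earlier results of these data known. Of the listed genes, 6 were not matched in the table, and others were too low to be tested.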

Additional observations from a re-analysis of the deposited data

Results flagged for a closer look

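For 25 of the genes named above, the effect of siTead1/4 at day 3 differed between C2C12 cells and PMs at an adjusted p under 0.05 (edgeR, interaction over 24 libraries). All 25 were called in C2C12 cells, and the test used the same C2C12 libraries as those calls. The differences below are C2C12 minus PM on the log2 scale.

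Among muscle genes the difference was -4.60 for Myl2, -3.67 for Myh6, -2.76 for Actn2, -2.37 for Casq1, -1.685 for Tmod1, -1.635 for Pgam2 and -2.78 for Ampd1. The further genes named outside the lists gave -2.78 for Dhrs7c, -2.32 for Itgb1bp2, -2.04 for Popdc2, -1.91 for Art1, -1.35 for Npnt and -2.91 for Hdac9. Myl2 was called down in both cell types, with 2.32 and 2.43 CPM in siControl PMs and 0.473 and 0.617 CPM in siTead1/4 PMs. Dhrs7c was higher in siTead1/4 PMs without passing the fold threshold, from 135.5 and 133 CPM to 257 and 249.5 CPM (0.92, adjusted p = 0.000613). Itgb1bp2 stood between 326.5 and 392 CPM in the PM libraries and its groups overlapped.

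For other genes the difference was -5.99 for Fxyd6, -3.64 for Frem2, -2.86 for Tspan13, -2.93 for Itgam, -4.46 for Nefl, -2.86 for Nefm and -1.92 for Mtap2. Nefl was at 0.0485 to 0.108 CPM in PMs, so its value there rests on few reads. The difference was positive for 3 genes called up in C2C12 cells, at 2.20 for Rassf5, 2.435 for Ero1l and 2.72 for Hs3st3b1. Ero1l was lower in siTead1/4 PMs, at 26.6 and 26.7 CPM against 32.9 and 37.1 CPM (-0.39, adjusted p = 0.0408), below the call threshold. The difference was -4.52 for Cyp26b1 and -5.38 for 9530026P05Rik, which were called down in C2C12 cells and up in PMs.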

How the results depend on the processing

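The number of calls changed with several settings. With DESeq2 size factors (162 falls, 28 rises) and upper quartile scaling (165 and 26) the counts stayed within 1.5 times, and the median of all genes moved by under 0.1. The other counts below are falls and rises, followed by the falls in the thick filament, Z-disc, coupling, energy and thin filament lists. DESeq2's own test gave 406 and 197, then 13, 15, 10, 7 and 8. Without a filter on low counts they were 587 and 468, then 19, 24, 14, 11 and 12, and Tead1 passed the test (-1.09). With at least 10 counts in every library they were 46 and 2, then 1, 1, 0, 1 and 1, with Tead4 at -1.79 and no longer called, where only 84 of the 166 falls and 17 of the 29 rises could be tested. With only the 4 libraries of day 3 they were 7 and 0 (1174 lower and 917 higher at an unadjusted p under 0.05), then 4, 0, 0, 0 and 0, with Tead4 at -1.73 and not called. With all 24 libraries they were 434 and 256, then 14, 17, 12, 8 and 8. Beyond the smaller number of samples or genes where an alternative removed them, the cause was not tested.

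With the replicate number as a block the counts were 219 falls and 39 rises, with 8 falls in the Z-disc list, and 261 lower and 66 higher effects against PMs. The deviations of equally numbered libraries correlated at 0.0951 over genes, and the labels do not say what a number shares, so the block was not used.

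Leaving out 1 library of day 3 gave 2 to 130 falls, 0 to 299 rises, 1 to 5 falls in the thick filament list, 0 to 2 in the Z-disc list, 0 to 2 in the coupling list, 0 to 1 in the energy list, 0 to 1 in the thin filament list, -2.31 to -1.34 for Tead4, and, leaving out 1 of the 8 libraries of day 3 in both cell types, 36 to 287 lower and 5 to 355 higher effects against PMs. Genes that were not called changed sign in places. Wwtr1 was 0.0085 with 4 libraries and 0.0086 with 24. With 1 library left out Wwtr1 ranged from -0.0275 to 0.0177, Ctgf from -2.8183 to 1.1083, Myf6 from -1.2894 to 0.4523, Vgll3 from -0.2195 to 0.3453, Amotl2 from -0.0825 to 0.5985, Vgll4 from -0.3184 to 0.3923 and Mapk6 from -0.106 to 0.5097.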
